A study of Homo sapiens with 4 samples.

Results

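The genes described here encode 10 sequence-specific RNA-binding proteins that act on splicing: PTBP1, PTBP2, PTBP3, MBNL1, MBNL2, RBFOX2, QKI, CELF1, ELAVL1 and TIA1. They were taken by a fixed list of gene identifiers whose rule uses no measured value, although the list was drawn up with earlier results of these data known. All 10 were listed, out of 17764 genes in the whole series. Together they held 1489 of the 595484 listed peaks. What is described is where ZFR peaks were listed on RNA made from these genes, not the activity of the proteins they encode.

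Binding was mapped by eCLIP, in which ultraviolet light joins a protein to the RNA it touches and the protein is then precipitated with that RNA. Here that protein was ZFR with a FLAG tag. ZFR has zinc fingers that bind double-stranded RNA and is known to take part in splicing. The 2 eCLIP libraries were set against 2 size-matched inputs, which in this method are RNA from the same size range taken without precipitation. All 4 came from HEK-293 Flp-In TREx cells, a human embryonic kidney line, that were polyclonal, had FLAG-ZFR integrated in their FRT site, received 1 µg/mL doxycycline for 48 to 72 h to switch the transgene on, and were crosslinked at 400 mJ/cm2. The inputs therefore carry the induced transgene too, and libraries of cells without it were not analysed here. Markers of the cell line were not checked, because the lists pair no gene names with their identifiers. The labels do not tell whether the replicates are separate cultures, so the limma p-values below reflect how much these libraries vary, a spread that may be technical. Those of Fisher's exact test, which compares 2 libraries, hold no spread between replicates.

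Splicing regulators of this kind recognise short sequence motifs in pre-mRNA and favour or block the use of nearby splice sites. PTBP proteins bind pyrimidine-rich tracts and mostly repress exons, MBNL, RBFOX and QKI proteins act as repressors or activators depending on where they bind, CELF1 binds GU-rich RNA, and ELAVL1 and TIA1 bind U-rich RNA. Several of them bind their own transcripts or those of paralogs, and PTBP1 is known to repress an exon of PTBP2. Many also act on the stability or translation of mRNA in the cytoplasm.

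The peak lists differed greatly in length, which limits every comparison below. They held 479308 and 41904 peaks for eCLIP replicates 1 and 2 and 63068 and 11204 peaks for inputs 1 and 2. The genes held 1228 and 117 of the eCLIP peaks and 126 and 18 of the input peaks, or 25.6 and 27.9 per 10000 peaks of the eCLIP libraries against 19.98 and 16.1 per 10000 of the inputs. As a share of the reads in peaks (the number that ends each peak's name, taken here as its reads) they took 24.8 and 20.9 per 10000 reads in eCLIP against 17.7 and 7.35 in the inputs. Most peaks were shallow: the median peak of the genes held 5 and 3 reads in eCLIP and 3 reads in each input, and no listed peak of any gene has under 3. The lists hold called peaks, so a gene with 0 peaks has no upper limit on its reads.

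PTBP2 (ENSG00000117569), the PTBP paralog used mainly in neurons, was the member of its family with most peaks in each library. Its peaks lay on the plus strand of chromosome 1 between 97187644 and 97280253 (hg19, as are all positions here), a span of 92.6 kb. It held 144 and 22 peaks in eCLIP against 16 and 3 in the inputs, or 3.00 and 5.25 per 10000 peaks in eCLIP against 2.54 and 2.68 in the inputs. Each eCLIP share was higher than either input share. With touching intervals merged into 1, the first pair reversed. It then held 144 eCLIP against 15 input regions, a ratio of shares of 0.935 in place of 1.18.

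PTBP1 (ENSG00000011304), the widely expressed repressor, had the shortest span, 13.7 kb of chromosome 19 (plus strand), from 798301 to 811975. It held 33 and 4 peaks in eCLIP against 5 and 2 in the inputs, or 0.688 and 0.955 per 10000 in eCLIP against 0.793 and 1.79 in the inputs. By number of peaks the eCLIP share was thus below that of the same-numbered input in both pairs. By reads it was above in both, at 1.58 and 0.653 per 10000 reads in eCLIP against 0.602 and 0.588 in the inputs. The peaks of PTBP1 in eCLIP replicate 1 were few and deep: their median was 13 reads, the highest median of the 10 genes in that library, and the shallowest held 6 reads.

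PTBP3 (ENSG00000119314), the remaining paralog, spanned 115 kb on the minus strand of chromosome 9 from 114980970 to 115095816 and was thinly covered. It held 34 and 0 peaks in eCLIP against 4 and 1 in the inputs. The deepest of its eCLIP peaks held 7 reads, and in replicate 2 there was no peak to compare.

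The MBNL genes, whose proteins drive the switch from fetal to adult splicing in muscle, were both long and nearly empty in the shorter lists. MBNL1 (ENSG00000152601) spanned 186 kb of chromosome 3 (plus strand), from 151997326 to 152183441. It held 160 and 3 peaks in eCLIP against 11 and 0 in the inputs, or 3.34 and 0.716 per 10000 in eCLIP against 1.74 and 0 in the inputs, and the groups overlapped. MBNL2 (ENSG00000139793) spanned 171 kb of chromosome 13 (plus strand), from 97874732 to 98046082. It held 92 and 0 peaks in eCLIP against 12 and 1 in the inputs, or 1.92 and 0 per 10000 in eCLIP against 1.90 and 0.893 in the inputs. The first pair was thus level for MBNL2, and the second rests on 1 input peak.

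RBFOX2 (ENSG00000100320), a regulator of exons in muscle, brain and epithelial programs, had the longest span, 289 kb on the minus strand of chromosome 22 from 36134889 to 36424175. It also held most peaks of the 10 genes in eCLIP replicate 1 and input 1, with 303 and 23 peaks in eCLIP against 37 and 4 in the inputs. Its shares were 6.32 and 5.49 per 10000 in eCLIP against 5.87 and 3.57 in the inputs, which overlapped. On the minus strand, many intervals of input 1 touch the next one. Merged, the 37 peaks of RBFOX2 formed 23 regions, the 17 of CELF1 formed 11 and the 9 of TIA1 formed 5. Merging also shortens the whole input 1 list, so first-pair ratios of eCLIP to input share moved in each gene. They fell for PTBP2 (1.18 to 0.935), MBNL1 (1.91 to 1.42), QKI, MBNL2 (1.01 to 0.896), PTBP1 and PTBP3. They rose for RBFOX2 (1.08 to 1.28), CELF1 (1.46 to 1.67), ELAVL1 (1.54 to 1.58) and TIA1 (0.965 to 1.29).

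QKI (ENSG00000112531), a STAR-family regulator of splicing and mRNA stability, spanned 163 kb of chromosome 6 (plus strand), from 163835764 to 163998609. It held 125 and 6 peaks in eCLIP against 8 and 0 in the inputs. The eCLIP shares, 2.61 and 1.43 per 10000, did not overlap those of the inputs, 1.27 and 0, though 1.43 and 1.27 rest on 6 and 8 peaks. They need not stay apart with touching intervals merged, which lowered the first-pair ratio from 2.06 to 1.51.

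CELF1 (ENSG00000149187), which regulates splicing in the nucleus and mRNA decay in the cytoplasm, held more peaks than any other of the 10 genes in eCLIP replicate 2. It spanned 97.4 kb on the minus strand of chromosome 11, from 47487574 to 47584940. It held 189 and 43 peaks in eCLIP against 17 and 5 in the inputs, or 3.94 and 10.3 per 10000 in eCLIP against 2.70 and 4.46 in the inputs. Its peak shares overlapped between the groups, because 3.94 lay below 4.46. Its read shares did not, at 5.64 and 7.62 per 10000 reads in eCLIP against 2.65 and 2.45 in the inputs.

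ELAVL1 (ENSG00000066044), the widely expressed Hu protein that stabilises AU-rich mRNAs, spanned 45.7 kb on the minus strand of chromosome 19, from 8024607 to 8070349. It held 82 and 7 peaks in eCLIP against 7 and 0 in the inputs, or 1.71 and 1.67 per 10000 in eCLIP against 1.11 and 0 in the inputs, with no overlap between the groups. TIA1 (ENSG00000116001), which helps U1 snRNP to reach weak splice sites, spanned 38.0 kb on the minus strand of chromosome 2, from 70437665 to 70475624. It held 66 and 9 peaks in eCLIP against 9 and 2 in the inputs, or 1.38 and 2.15 per 10000 in eCLIP against 1.43 and 1.79 in the inputs. Each of these TIA1 peaks is listed under another gene identifier as well, so they cannot be assigned to TIA1 alone. The same holds for 6 of the 189 peaks of CELF1 and for 1 of the 303 of RBFOX2 in eCLIP replicate 1.

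**Figure D1:**
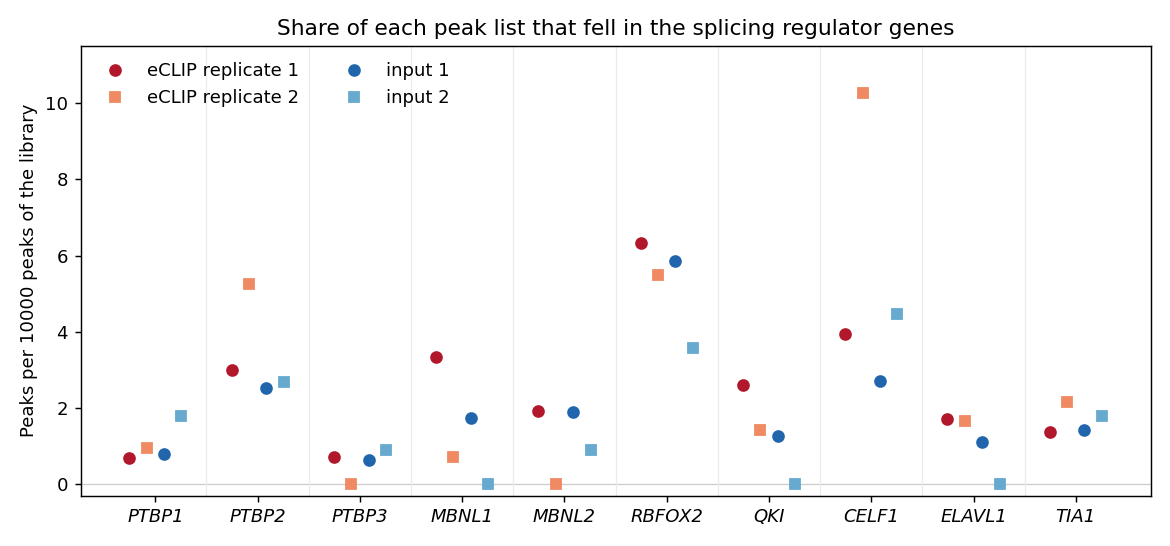
Peaks per 10000 peaks of the library (vertical axis, linear) in each of the 10 genes (horizontal axis), with 1 point for each library, eCLIP left of input. CELF1 in eCLIP replicate 2 stands highest, at 10.3, and PTBP2, QKI and ELAVL1 are the genes with both eCLIP points above both input points. Touching intervals are not merged here, and with them merged PTBP2 loses this order.

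Set against length, the order of the genes changed. In eCLIP replicate 1, PTBP1 had the most peaks per kb of span, 2.41, followed by CELF1 at 1.94, ELAVL1 at 1.79, TIA1 at 1.74 and PTBP2 at 1.55. RBFOX2 followed with 1.05, MBNL1 with 0.860 and QKI with 0.768, and MBNL2, at 0.537, and PTBP3, at 0.296, were the sparsest. In eCLIP replicate 2 the same 5 genes led, with CELF1 first at 0.442 peaks per kb, PTBP1 at 0.293, PTBP2 and TIA1 at 0.238 and 0.237, and ELAVL1 at 0.153. These 5 genes also led in input 1, with PTBP1 at 0.366, TIA1 at 0.237, CELF1 at 0.175, PTBP2 at 0.173 and ELAVL1 at 0.153. In input 2 PTBP1 again came first, at 0.146, while ELAVL1 had no peak. The order was thus not particular to eCLIP. The spans run from the first to the last peak of any library and so are not annotated gene lengths. The neighbours in this order were not tested against each other.

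The comparison of eCLIP with input asked whether precipitating ZFR changed the part of all peaks that fell in any of these genes. None of the 10 passed the test in either direction. limma was fitted to the 8914 genes whose peaks summed to 10 or more, on log2(peaks per 10000 peaks + 0.5), with Benjamini-Hochberg adjustment over all of them. It called 0% of all genes higher and 0% lower at an adjusted p of 0.05, while 112 were higher and 62 lower at an unadjusted p under 0.05, none of the 10 among them. Without eCLIP replicate 2, limma called 663 genes higher, again none of the 10. Each of the 10 had an adjusted p of 0.995. In such bulk lysates, fewer cells with an RNA and less RNA per cell cannot be told apart.

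The largest positive differences of eCLIP minus input on that log2 scale were those of QKI, 1.38 (SE 0.83), ELAVL1, 1.29 (SE 0.83), and MBNL1, 1.03 (SE 0.88). In these 3 genes input 2 listed no peak, and without input 2 the differences were 0.47 for QKI, 0.44 for ELAVL1 and -0.055 for MBNL1. CELF1 had 0.80 (SE 0.87), PTBP2 0.53 (SE 0.80), RBFOX2 0.33 (SE 0.86) and TIA1 0.09 (SE 0.77). The negative ones were MBNL2 with -0.73 (SE 0.87), PTBP3 with -0.69 (SE 0.83) and PTBP1 with -0.39 (SE 0.79). Single libraries decided these values too: without eCLIP replicate 2, CELF1 had 0.16 and PTBP2 0.17, and without input 2, RBFOX2 had 0.0056. Without eCLIP replicate 2, PTBP3 had -0.055, while MBNL2 (0.40) and TIA1 (-0.16) changed sign, and without input 2 PTBP1 had 0.024. The median over the 10 genes was 0.43, beside 0.16 over all tested genes. Differences were positive in 7 of the 10, beside 59.7% of all tested genes. Of the 3428 genes with at least 50 peaks summed, which include 8 of the 10, 2364 were positive. Their median was 0.37, beside 0.66 over those 8. RBFOX2 and TIA1 turned negative (-0.14 and -0.38) when each library was centred on its median gene. The median gene of input 2 had 0 peaks, so its value was set by the pseudocount. Centring lowered every gene by the same amount, so these changes of sign are not particular to the 2 genes. PTBP1 turned positive by reads (0.50) and with peaks of a p-value of at most 0.001 (2.13).

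**Figure D2:**
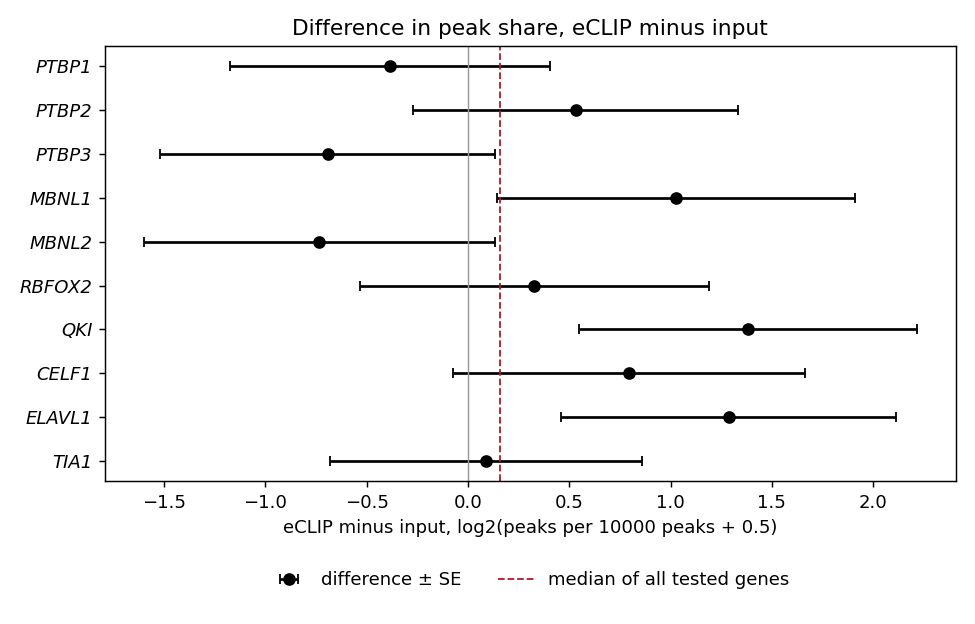
Difference of eCLIP minus input in log2(peaks per 10000 peaks + 0.5) for each gene (rows), from limma over 4 libraries, with bars of 1 SE and a dashed line at the median of all tested genes, 0.16. Every value lies within 2 SE of 0, from -0.73 for MBNL2 to 1.38 for QKI.

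The ordering of the libraries gave little more. The eCLIP peak shares were both higher than both inputs in 3 of the 10 genes (PTBP2, QKI and ELAVL1), beside 21.1% of all tested genes, and below both in 0, beside 10.2%. By reads in peaks the count above was 5 (PTBP1, PTBP2, CELF1, ELAVL1 and TIA1), beside 25% of all tested genes, and the count below was 0, beside 9.08%. By peak share, PTBP2 lost this order once touching intervals were merged, with an eCLIP to input ratio of 0.935 in the first pair. The order of QKI need not hold either, as its ratio there fell from 2.06 to 1.51. Within same-numbered libraries the eCLIP peak share was the higher in both pairs in 6 of 10 genes, beside 31.9%, and the lower in both in PTBP1 alone, beside 15.6%. By reads these counts were 7 and 2, beside 34.3% and 13.4%. The directions by peak share depend on merging touching intervals. Merged, PTBP2 was lower in the first pair, MBNL2 was lower in both (ratios 0.896 and 0), and TIA1 was higher in both (1.29 and 1.19). With 10 genes and input 2 at 0 peaks in 3 of them, these counts are a description of the lists. The percentages beside them include many sparser genes. Of all tested genes, 27.2% had no peak in eCLIP replicate 2 and 55.4% had none in input 2. Fisher's exact test of peak numbers, which compares 2 libraries, not the conditions, called 0 of the 10 in the first pair (1.87% of all genes higher and 4.68% lower) and 0 in the second (0.0449% and 0.0673%). The lowest adjusted p among the 10 was that of MBNL1 in the first pair, 0.199 by Fisher's exact test, with 160 eCLIP peaks against 11 input peaks. For 4 libraries in 2 groups, the smallest two-sided p of an exact permutation test is 0.333.

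The next question was how often the eCLIP libraries marked the same place in these genes. Of the 117 peaks of eCLIP replicate 2, 43 overlapped a peak of eCLIP replicate 1 on the same strand by at least 1 base. That is 36.8% (95% Wilson interval 28.6 to 45.8), an interval that includes the 33.1% over all genes. CELF1 gave 20 of the 43 (46.5% of its own 43 replicate 2 peaks, 32.5 to 61.1) and PTBP2 gave 10 (45.5% of 22, 26.9 to 65.3). RBFOX2 gave 5 (21.7% of 23, 9.66 to 41.9). These intervals overlap and cover counting error only. TIA1 gave 4 of 9, ELAVL1 2 of 7, QKI 1 of 6, MBNL1 1 of 3, PTBP1 0 of 4, and PTBP3 and MBNL2 had no replicate 2 peak to compare.

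**Figure D3:**
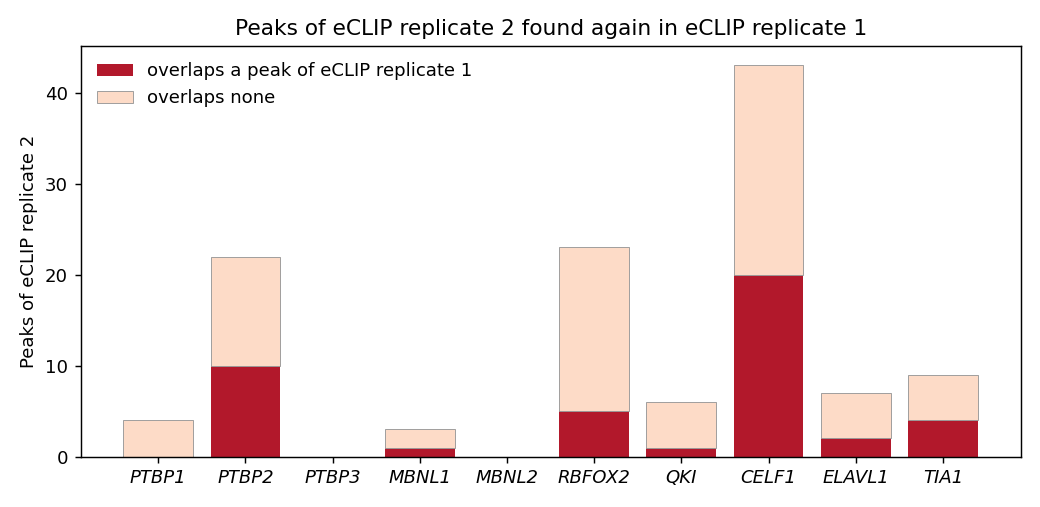
Number of peaks of eCLIP replicate 2 in each gene (bars, linear axis from 0), split into those that overlap a peak of eCLIP replicate 1 (dark) and those that overlap none (light). CELF1 shows 20 overlapping peaks of 43, PTBP2 10 of 22 and RBFOX2 5 of 23.

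Counted on eCLIP replicate 1, 43 of its 1228 peaks in these genes were found again in replicate 2, and 41 of the 43 overlapped no input peak. That is 95.3%, beside 85.2% of the shared peaks of all genes. The input lists are short, so few peaks could overlap them. Of all 1228 replicate 1 peaks in these genes, only 19, or 1.55%, overlapped an input peak. The 95.3% therefore does not set the shared peaks apart from the others. The 41 were 19 in CELF1, 9 in PTBP2, 5 in RBFOX2, 4 in TIA1, 2 in ELAVL1, and 1 each in MBNL1 and QKI. Without CELF1 the count was 22. Peaks found again were the deeper ones: their median was 13 reads in eCLIP replicate 1, where the other peaks had 5, and 4 reads in replicate 2, where the others had 3. Of replicate 1 peaks with 3 to 5 reads, 1.32% (0.716 to 2.41) were found again, and of the 30 with over 20 reads, 33.3% (19.2 to 51.2), beside 0.975% and 36.7% over all genes. In these genes, as over all genes, deeper peaks were found again more often.

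The best-supported site of the 10 genes lay in CELF1. It was the peak at 47490572 to 47490626 on chromosome 11, with 37 reads in eCLIP replicate 1 (authors' p-value 5.58e-27) and 8 reads in the overlapping eCLIP replicate 2 peak (8.61e-06). It lay 3026 bases from the 3′ end of the span. The 1 kb stretch of CELF1 with most shared eCLIP-only sites held 4, from 47489726 to 47490626, with 121 reads in replicate 1 and 25 in replicate 2. Of the 20 shared sites of the gene, 9 lay in the last 10% of the span.

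In PTBP2 the site chosen by the same rule lay at 97279841 to 97279877 on chromosome 1, with 18 reads (p-value 1.76e-12) and 7 reads (4.30e-05) in the eCLIP libraries. It was 395 bases from the 3′ end of the span, in a stretch of 4 shared eCLIP-only sites from 97279246 to 97280119 with 85 and 21 reads. The deepest peak of PTBP2 in eCLIP replicate 1, with 36 reads at 97279634 to 97279723, belongs to that stretch. The deepest in replicate 2 lay elsewhere, with 14 reads at 97263647 to 97263684, where replicate 1 had a peak of 4 reads.

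In QKI the chosen site, at 163992555 to 163992604 on chromosome 6, held 18 reads (6.02e-14) and 6 reads (0.000162), and was the 1 shared site of the gene. All 6 replicate 2 peaks of QKI lay in the last 10% of the span. In MBNL1 the 1 shared site lay at 152183172 to 152183203 on chromosome 3, 254.5 bases from the 3′ end of the span at its midpoint. It held 18 reads (1.58e-15) and 4 reads (0.00422), and was the strongest MBNL1 peak of replicate 1. In RBFOX2 the chosen site lay at 36151953 to 36151996 on chromosome 22, with 18 reads (3.53e-13) and 4 reads (0.00545), and a second shared site at 36151867 to 36151907 lay next to it. On this long gene the site is 17086.5 bases from the 3′ end of the span, though still in its last 10%.

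ELAVL1 and TIA1 had their shared sites away from the 3′ end. Both sites of ELAVL1 lay close together, from 8040381 to 8040697 on chromosome 19, about 16 kb from the 3′ end of the span. The chosen one, at 8040674 to 8040697, held 9 reads (7.51e-05) and 6 reads (0.00036), and the replicate 1 peak of the gene with the lowest p-value, with 22 reads at 8040505 to 8040553, lay between them. In TIA1 the chosen site, at 70463431 to 70463455 on chromosome 2, held 4 reads in each eCLIP library (0.0215 and 0.0067). It is near the limit of what these lists contain.

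PTBP1, PTBP3 and MBNL2 had no shared site, and their strongest peaks rest on eCLIP replicate 1 alone. PTBP1 had 40 reads at 807346 to 807403 and 30 reads at 807579 to 807631 on chromosome 19, neighbours in the body of the gene, and 24 reads at 811636 to 811674, 321 bases from the 3′ end of the span. The 3 strongest peaks of MBNL2 lay within 1 kb of each other, from 98008206 to 98008961 on chromosome 13, with 10, 10 and 8 reads. Those of PTBP3 held 7 reads at most.

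**Figure D4:**
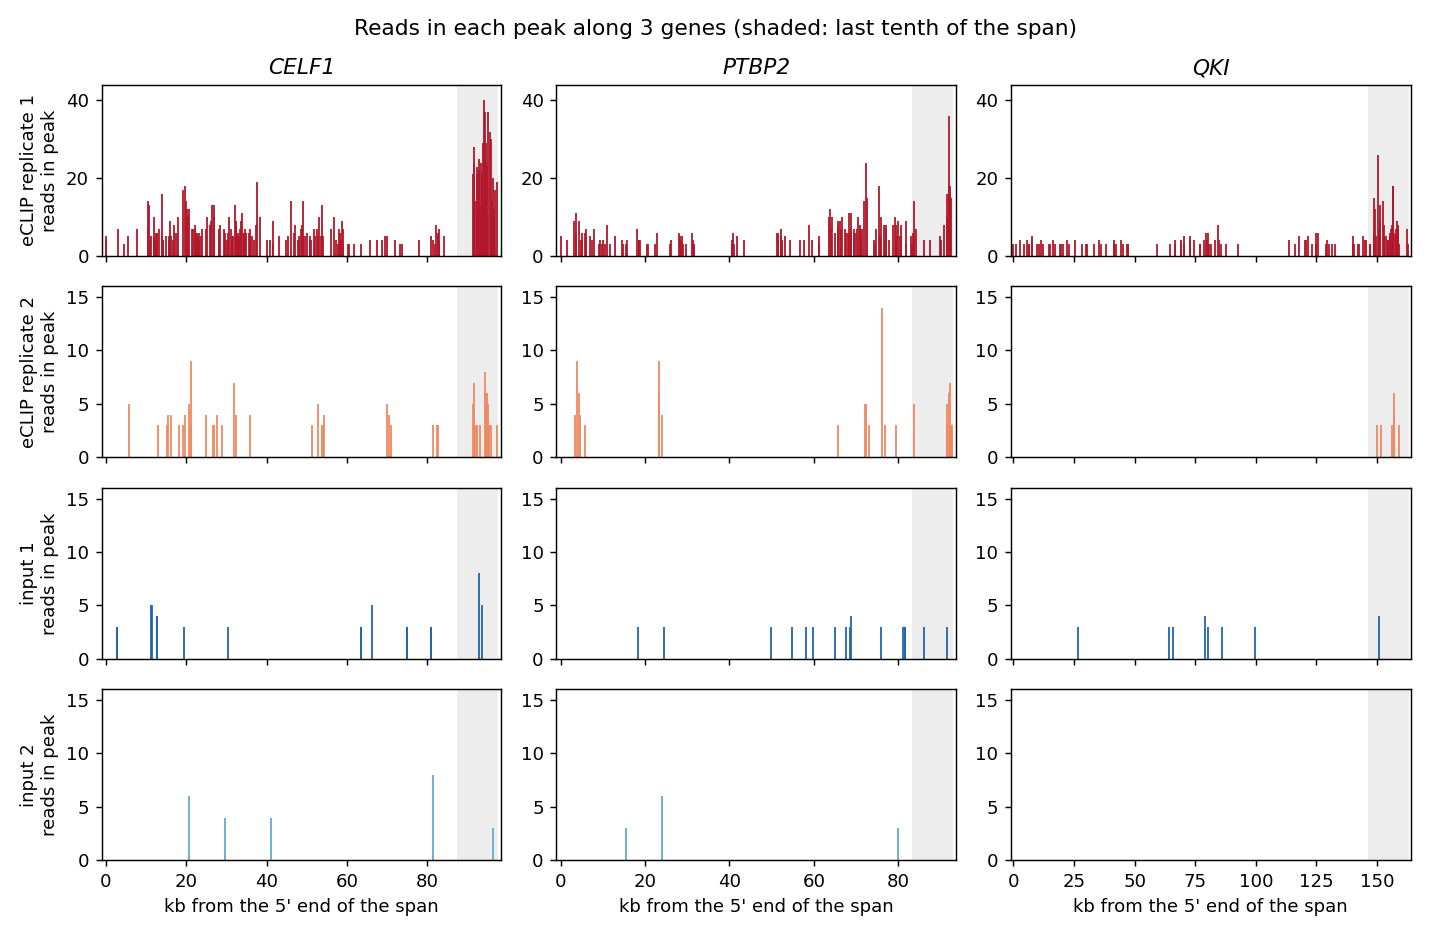
Reads in each listed peak (vertical axis, linear, with a wider range for eCLIP replicate 1) against the distance in kb from the 5′ end of the span, for CELF1, PTBP2 and QKI in the 4 libraries. In eCLIP replicate 1 the tallest peaks, up to 40 reads in CELF1, 36 in PTBP2 and 26 in QKI, stand in the shaded last 10% of the span, and the inputs have peaks of at most 8 reads along these genes.

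Many of the strong sites lay near the 3′ end, so the position of all peaks was set out along the spans. The last of 10 equal parts held 201 of the 1228 peaks of eCLIP replicate 1, or 16.4% (14.4 to 18.5), and 33 of the 117 of replicate 2, or 28.2% (20.8 to 37.0). The inputs had 20 of 126, or 15.9% (10.5 to 23.2), and 1 of 18, or 5.56% (0.988 to 25.8). Over the 6536 genes that had 20 or more peaks over a span of 5 kb or more, the shares were 9.64% and 8.77% of eCLIP peaks against 13.8% and 15.2% of input peaks. The eCLIP shares of the 10 genes were thus above those of all genes, by intervals that cover counting error only, while input 1 was close to its all-gene value. Within the 10 genes, eCLIP replicate 1 and input 1 were level, so eCLIP is not shown to differ from input at the 3′ end. In the last of 5 equal parts the shares were 25% and 36.8% of eCLIP peaks against 27.0% and 22.2% of input peaks, which overlap.

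By reads the 3′ part weighed more than by peaks in eCLIP replicate 1, and about the same in replicate 2. It took 26.5% and 28.6% of the reads in eCLIP peaks of the 10 genes against 17.2% and 4% in the inputs, where all genes gave 10.3% and 9.43% of eCLIP reads against 14.0% and 16.5% of input reads. In eCLIP replicate 1 the median peak there held 7 reads, against 4 in the other parts. In replicate 2 the median was 3 reads in both, and the means were 4.15 and 4.07. Of the 30 peaks with over 20 reads in eCLIP replicate 1, 25 lay in the last 10% of the span. Of those 25, 19 were the 19 such peaks of CELF1. Replicate 2 had 0 peaks of that depth in these genes.

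The genes differed in this. In eCLIP replicate 1 the last 10% of the span held 48.9% of the reads in QKI, 42.1% in PTBP3, 39.3% in CELF1, 23.7% in RBFOX2, 22.3% in PTBP2, 21.2% in PTBP1, 19.1% in MBNL1 and 18.4% in ELAVL1. In MBNL2 and TIA1 it held 4.29% and 3.98%, against 33.3% and 22.2% in input 1, from 4 and 2 input peaks of 3 reads each. Input 1 had 22.2% in ELAVL1, 20% in PTBP1, 19.7% in CELF1 and 15.6% in RBFOX2. It had 15.4% in QKI, 12.2% in PTBP2, 9.76% in MBNL1 and 0% in PTBP3, all from few peaks. Over the 5784 genes that had 20 or more peaks in eCLIP replicate 1, the median was 9.31% and the upper quartile 17.3%. In that library 8 of the 10 lay above the upper quartile. In eCLIP replicate 2, with fewer peaks, the share was 33.1% in CELF1 and 28.3% in PTBP2, while TIA1 and PTBP1 had no peak there. CELF1 peaks in this part held 22.7 reads on average in eCLIP replicate 1, against 6.62 elsewhere in the gene. The 2 peaks of input 1 there averaged 6.50 reads, against 3.53 elsewhere.

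Of the 43 shared sites, 20 lay in the last 10% of the span, or 46.5% (32.5 to 61.1), in 5 of the genes (CELF1, PTBP2, RBFOX2, QKI and MBNL1). Over all measured genes it was 1303 of 12569, or 10.4%. Without CELF1 it was 11 of 23, or 47.8% (29.2 to 67.04). Neighbouring sites are counted 1 by 1, such as the 4 in 1 stretch of PTBP2 and the 4 in 1 stretch of CELF1. The intervals treat them as independent and may be too narrow. Shared sites were also the deeper peaks, so this count is not separate from the result by reads. The remaining shared sites were spread over the other parts, with at most 4 in any one. Exon, intron and UTR classes were not analysed here.

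**Figure D5:**
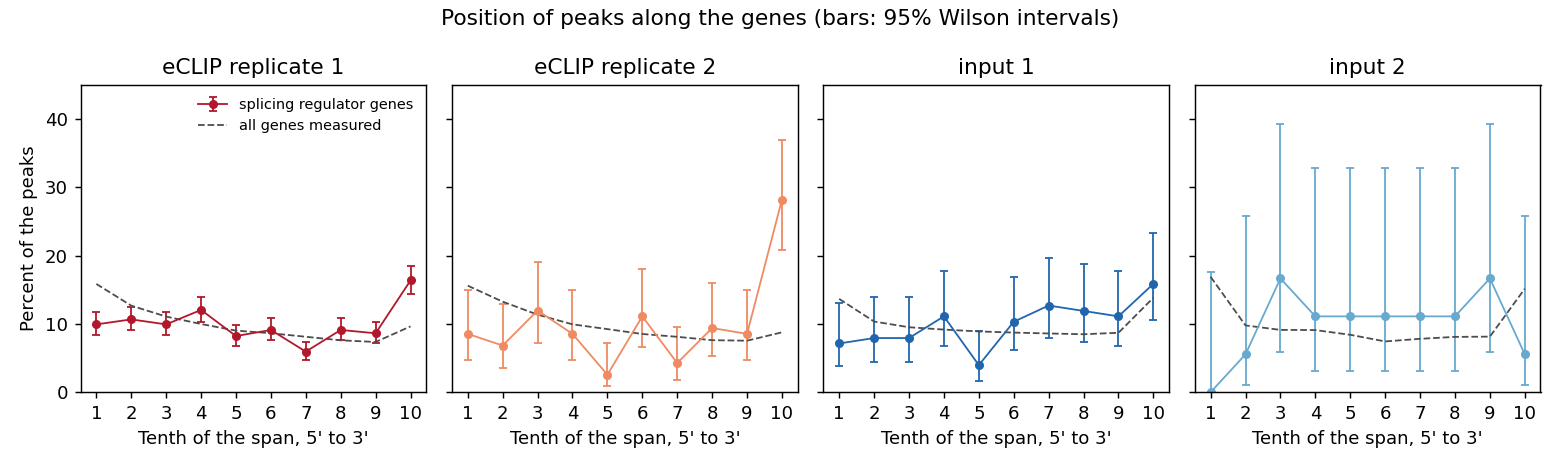
Percent of peaks (vertical axis) in each of 10 equal parts of the span from 5′ to 3′, in each library. Points, with 95% Wilson intervals, are the 10 genes, and dashed lines are the measured genes with peaks in that library. From eCLIP replicate 1 to input 2 the points rest on 10, 8, 10 and 7 genes. The dashed lines rest on 6535, 5397, 6144 and 3324 of the 6536. In the last part the 10 genes reach 16.4% and 28.2% in eCLIP replicates 1 and 2, where the dashed lines stand at 9.64% and 8.77%, while in the inputs the intervals include the dashed line.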

How the data were processed

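The authors deposited 1 peak list per library, with an interval and strand, a gene identifier, a p-value for each peak and a score derived from that deposited p-value. Per the submitters' processing notes the reads went through cutadapt, STAR and SAMtools on hg19; the versions, the peak caller and the annotation used were not given in the sources used here. Each peak's name ends in a number that was read as its reads, which the files do not state. Library depth is unknown.

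From these lists, peaks, reads and covered bases per gene were summed, gene shares were fitted with limma 3.58.1 (R 4.3.3; lmFit, eBayes with trend, two-sided), same-numbered libraries were compared with Fisher's exact test (SciPy 1.17.1), and overlaps were found with bedtools 2.31.1. Both tests were run on simulated lists with changes larger than the main differences of the 10 genes. The simulations do not show how small a change the tests would find. Libraries were grouped by title. The members, lists and tests were chosen with earlier results of these data known. All 10 genes are named; each gene's site is the shared peak outside the inputs whose higher p-value of the eCLIP pair is lowest. Alternatives covered the pseudocount, filters, p-value limit, quantity, merging, centring, replicate block and overlap rule, and leaving out each library or gene. Intervals cover counting error only.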

Additional observations from a re-analysis of the deposited data

How the results depend on the processing

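No gene of the 10 that was tested passed the limma threshold under any of the 15 alternatives run, nor Fisher's exact test under either of its 2. Filters left 8 of the 10 to test with at least 50 peaks or with the p-value limit (in both tests), and 9 without peaks listed under several genes or without eCLIP replicate 1. Of 105 single-gene differences under settings that keep all libraries, 101 kept their direction. The exceptions were PTBP1, at 2.13 with a p-value limit of 0.001 and 0.50 by reads, and RBFOX2 (-0.14) and TIA1 (-0.38) under centring, which moved the median of all tested genes to -0.31, from 0.16 as reported, and left 2828 of 8914 genes positive in place of 5318. With 1 library left out, where the lone library is assumed to vary like the other group, 34 of 39 kept it: PTBP1 ranged from -0.80 to 0.024, MBNL1 from -0.055 to 2.11, MBNL2 from -1.87 to 0.40 and TIA1 from -0.16 to 0.34. Those that kept their direction ranged widely, QKI from 0.47 to 2.29, ELAVL1 from 0.44 to 2.13, CELF1 from 0.16 to 1.43, RBFOX2 from 0.0056 to 0.65, PTBP2 from 0.17 to 0.89 and PTBP3 from -0.84 to -0.055. The cause was not tested. Over all genes limma called 663 higher without eCLIP replicate 2, 1 lower without either input, and 3 higher and 1 lower with the replicate block, against 0 as reported. The block left the count among the 10 genes at 0. The labels do not say what the shared numbers mean, and the deviations of same-numbered libraries correlated at r = 0.397 over 8914 genes with only 2 pairs, so no pairing is assumed. Fisher's exact test with touching peaks merged called 23 genes higher and 163 lower in the first pair, in place of 167 and 417. The 41 shared sites outside the inputs became 9 with the p-value limit and 11 with the 11204 best-ranked peaks of each library, since fewer peaks enter, and 22 without CELF1, an alternative chosen after seeing the data. In the last 10% of the span the mean share of eCLIP minus input was 11.6 percentage points, 25.8 with the p-value limit, 6.27 for the last of 5 equal parts (25% and 36.8% of eCLIP peaks against 27.0% and 22.2% of input peaks), and between 5.65 and 17.5 with 1 library left out, also chosen after seeing the data. The 18 peaks of input 2 limit every comparison with the inputs.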
